A study of Mus musculus with 12 samples.

Results

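A list of 34 imprinted mouse genes was followed in embryonic kidneys that lack *Bdkrb2*, the gene of the bradykinin B2 receptor. Members were found by matching the accession of each array probe, control spots left out, to the gene symbols. Of the 34 genes, 29 had at least 1 matched probe, and *H19*, *Magel2*, *Meg3*, *Rian* and *Rtl1* had none and were not analysed here. Of 17305 genes with a matched probe in the whole series, 12647 were tested, and 25 of these are imprinted genes of the list, with 36 of the 22979 tested probes. The 5 listed genes of the *Dlk1-Dio3* cluster on chromosome 12, the chromosome of *Bdkrb2*, were thus reduced to *Dlk1* and *Dio3*, set here against 23 tested members on other chromosomes.

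Kidneys of *Bdkrb2* null embryos were compared with kidneys of wild-type (WT) embryos at embryonic day 14.5, both on a C57BL/6 background. Mothers and their mates were heterozygous, and the mothers ate food with 5% sodium, so that both genotypes were exposed to gestational salt and no embryo without it was included. RNA of both genotypes was labelled with Cy3 and Cy5 and hybridised together on 12 two-colour Agilent arrays. In 3 replicates the null RNA carried Cy5 (null/WT) and in 3 it carried Cy3 (WT/null), with 2 arrays per replicate, and the 4 arrays that share a replicate number share a slide. The labels do not say whether a sample held the kidneys of 1 embryo or of several, or whether both orientations of a number used the same RNA. Without that, p-values measure the spread between these hybridisations, which may be partly technical.

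Imprinted genes are transcribed mainly from a single parental allele, chosen by DNA methylation that was laid down at control regions in the egg or the sperm. In the fetus they include growth promoters that are expressed from the paternal allele, such as *Igf2*, and growth restrainers, many of them maternally expressed, such as *Igf2r*, *Cdkn1c*, *Grb10* and *Phlda2*. Several members, among them *Cd81*, *Tssc4*, *Nap1l4* and *Ppp1r9a*, are imprinted mainly in the placenta, and *Ube3a* mainly in neurons. Loss of *Cdkn1c* in mice is known to disturb development of the renal medulla. The probes measure total transcript and do not tell parental alleles apart.

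The promoter windows of 4 members are shown because the results below turn on these genes and because methylation acts on the dinucleotide CG, which is in capitals. The windows run from 250 bases before to 50 bases after the transcription start, 5′ to 3′ on the strand of the gene, and are RefSeq sequence of assembly GRCm38.p6. *Dlk1* and *Dio3* bound the chromosome 12 cluster (chr12:109452573-109452872, plus strand, and chr12:110278980-110279279, plus strand). *Plagl1* (chr10:13090582-13090881, plus strand) had the smallest p of the members, and the window of *Peg3* (chr7:6730370-6730669, minus strand) shares 263 bases with that of its divergent neighbour *Usp29*.
Dlk1: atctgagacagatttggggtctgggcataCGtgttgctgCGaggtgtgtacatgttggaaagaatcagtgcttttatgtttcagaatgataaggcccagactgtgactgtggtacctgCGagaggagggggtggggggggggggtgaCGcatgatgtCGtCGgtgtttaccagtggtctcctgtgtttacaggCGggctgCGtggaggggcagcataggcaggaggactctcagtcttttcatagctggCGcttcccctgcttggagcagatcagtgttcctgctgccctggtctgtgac
Dio3: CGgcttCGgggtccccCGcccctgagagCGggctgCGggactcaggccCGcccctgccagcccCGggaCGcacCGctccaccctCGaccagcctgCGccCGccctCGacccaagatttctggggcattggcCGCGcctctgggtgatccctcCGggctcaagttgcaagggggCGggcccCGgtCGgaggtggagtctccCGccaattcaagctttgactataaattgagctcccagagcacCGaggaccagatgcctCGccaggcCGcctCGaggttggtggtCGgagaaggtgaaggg
Plagl1: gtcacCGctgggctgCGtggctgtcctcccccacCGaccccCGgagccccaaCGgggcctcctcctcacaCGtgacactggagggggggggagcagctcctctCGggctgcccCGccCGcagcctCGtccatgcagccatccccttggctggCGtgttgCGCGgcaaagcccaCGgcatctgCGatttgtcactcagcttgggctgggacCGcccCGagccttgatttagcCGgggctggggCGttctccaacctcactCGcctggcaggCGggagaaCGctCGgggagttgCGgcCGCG
Peg3: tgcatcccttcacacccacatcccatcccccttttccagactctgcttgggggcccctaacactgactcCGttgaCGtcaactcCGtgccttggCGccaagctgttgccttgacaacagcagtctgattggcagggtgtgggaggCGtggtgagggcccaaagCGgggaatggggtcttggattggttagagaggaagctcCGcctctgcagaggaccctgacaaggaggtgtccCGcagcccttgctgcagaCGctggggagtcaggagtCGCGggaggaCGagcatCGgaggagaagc
The *Dlk1* window holds 9 CG dinucleotides, *Dio3* 25, *Plagl1* 26 and *Peg3* 13. At least 1 CG is present in 94.6% of all 32851 windows in the RefSeq table, whose median is 7 per window, and in 39 of the 40 windows that 26 listed members have there, whose median is 16.5. The hexamer TGCCGC, bound by the imprint regulator ZFP57 when its CG is methylated, was found on either strand in 9 of those 40 windows (22.5%), against 11.6% of all windows. *Plagl1* has it and the other 3 windows shown do not. A match of letters is a description and not evidence of binding.

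The threshold, a limma adjusted p under 0.05 over all tested probes, was passed by no imprinted gene. Of all probes, 0.0392% passed, and of the 36 probes of imprinted genes 0 passed, the smallest adjusted p being 0.570 for *Plagl1*. Before adjustment, 6 of 36 probes (16.7%) had a p under 0.05, against 7.01% of all tested probes. These were the brighter and the dimmer probe of *Plagl1*, a zinc finger transcription factor gene, 1 probe each of *Igf2r*, *Ppp1r9a* and *Igf2*, all with a positive log2 ratio of null over WT, and the dimmer *Snrpn* probe with a negative one. With the replicate number as a block, which rests the test on 3 dye-swap pairs, 2 of 36 probes (5.56%) had an unadjusted p under 0.05, both of them *Plagl1*, against 3.30% of all probes. The 6 probes became 1 without slide 1 (2.78%, against 3.97% of all probes) and 10 without slide 3 (27.8%, against 8.25%), so that the count hung on single slides.

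The differences were small on the log2 scale, where 1 unit is a doubling. By the brightest tested probe of each gene, 15 of 25 genes had a positive log2 ratio and 10 a negative one, between -0.16 for *Ndn* and 0.22 for *Igf2r*. The median was 0.04, against -0.003 over all genes tested and -0.01 over all tested probes. Median centring instead of loess moved all probes to a median of 0.14, and 24 genes were then positive and 1 negative, while 18 lay above the median of all probes, against 15 with loess. *Rasgrf1* entered these counts through its null channels alone, as given below. Without it 14 of 24 genes were positive, with a median of 0.04. All 25 intervals of 95% lay within 0.5 of 0 in either direction, as did those of 12453 of the 12647 genes tested. Among the 25, the interval bound farthest from 0 was 0.42, for *Igf2r*. Without regard to sign the median size was 0.09 over the 25 genes and 0.05 over all genes tested.

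**Figure D1:**
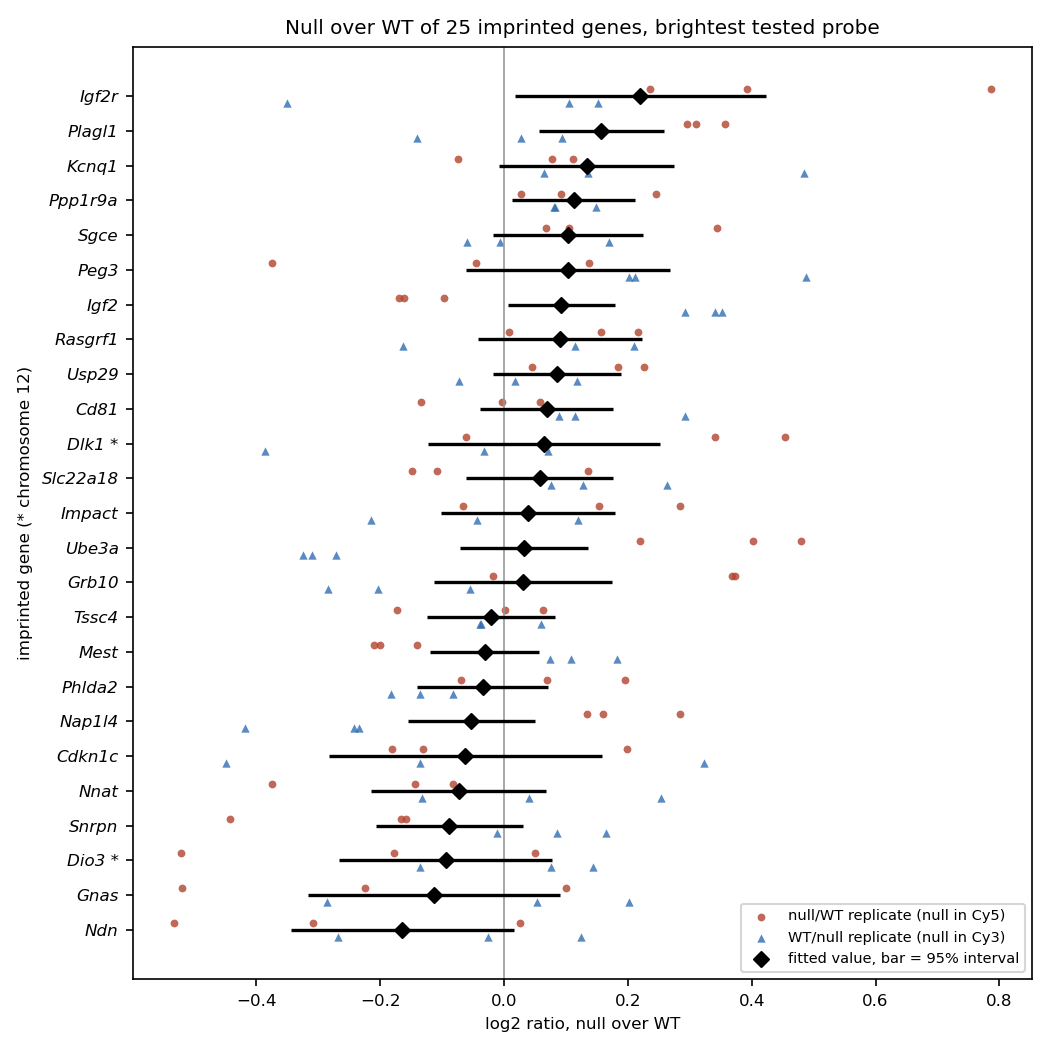
Log2 ratio of null over WT (horizontal axis) for the 25 tested imprinted genes, ordered by fitted value. Circles are the 3 null/WT and triangles the 3 WT/null replicates, diamonds the fitted values with 95% intervals, which lie between -0.34 and 0.42; in many genes the circles and the triangles separate.

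On chromosome 12, *Dlk1*, a transmembrane ligand of the Notch family expressed from the paternal allele, had log2 signals of 11.25, 11.42 and 11.77 (lowest, median and highest of 6 replicates) in null channels and of 11.03, 11.24 and 11.83 in WT channels. Its log2 ratios were 0.34, 0.45 and -0.06 in null/WT replicates 1, 2 and 3 and -0.03, 0.07 and -0.39 in WT/null replicates 1, 2 and 3. The signals of both genotypes overlapped, but they are not scaled between arrays and the ratios compare the genotypes within an array. Both replicates of slide 3 had ratios below 0. The fitted log2 ratio was 0.06 ± 0.08 (SE, n = 6 replicates, limma adjusted p = 0.798). Averaged over both orientations, it was 0.15 on slide 1, 0.26 on slide 2 and -0.22 on slide 3. Without slide 3 it was 0.21 (limma adjusted p = 0.205), and without slide 2 it was -0.03.

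*Dio3*, which encodes the deiodinase that inactivates thyroid hormone, is dim, with a signal well above background in 11 null channels and 11 WT channels of 12. Its log2 signals were 6.44, 6.81 and 7.34 in null and 6.58, 6.95 and 7.30 in WT channels (lowest, median and highest). By replicate, its log2 ratios were -0.18, -0.52 and 0.05 in the null/WT and 0.14, 0.08 and -0.14 in the WT/null replicates. They were thus positive in 3 and negative in 3 replicates, and the fit gave -0.09 ± 0.07 (SE, limma adjusted p = 0.734). *Dlk1* and *Dio3* differed in sign on slides 1 and 2 and were both negative on slide 3. The median of both genes was -0.01 over all replicates and 0.07, 0.02 and -0.13 by slide. The other 23 members, *Rasgrf1* among them, had a median of 0.04, and of 0.05, 0.07 and -0.03 by slide. With 2 genes in the cluster no test of that contrast was made. In both sets the slide medians were positive on slides 1 and 2 and negative on slide 3.

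**Figure D2:**
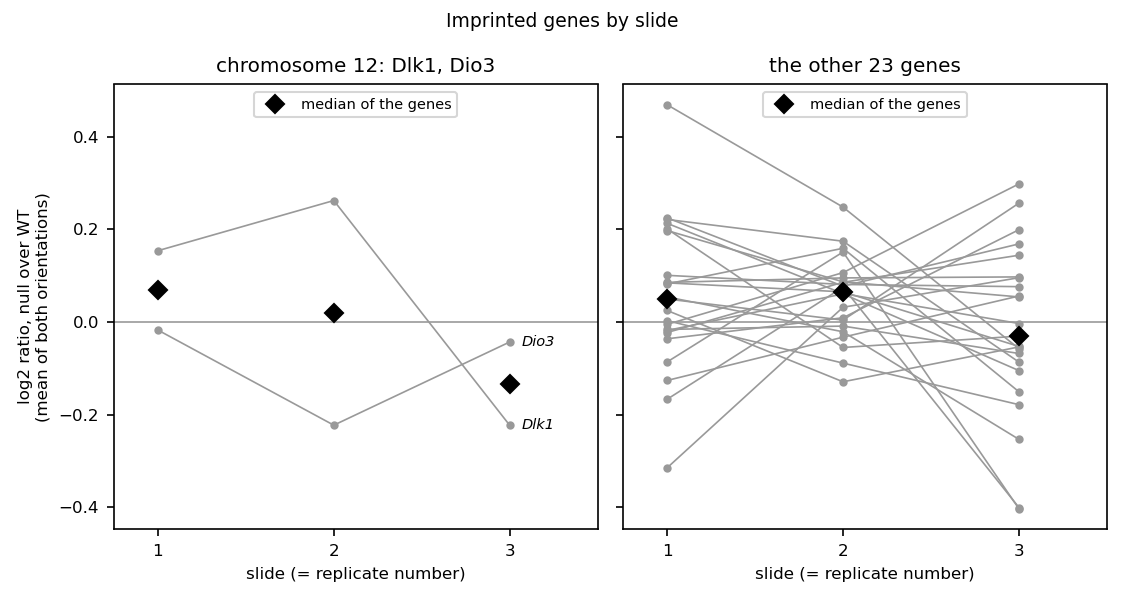
Log2 ratio of null over WT, averaged over both dye orientations, on slides 1, 2 and 3 for *Dlk1* and *Dio3* (left) and the 23 other tested members (right). Each grey line is a gene and diamonds are medians, which run between -0.13 and 0.07 on the left and between -0.03 and 0.07 on the right.

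*Bdkrb2* lies before *Dlk1* in the order of the chromosome 12 genes, with 63 annotated genes between them, 16 of which were tested. The 15 tested genes next to the cluster on the *Bdkrb2* side had a median log2 ratio of -0.03, with 3 positive and 12 negative and 0 at an unadjusted p under 0.05. The 15 tested genes next to it on the other side had a median of 0.04, with 10 positive and 5 negative. Of those, *Rcor1*, which encodes a corepressor (0.14), *Exoc3l4* (0.17) and *Tnfaip2* (0.10) had an unadjusted limma p under 0.05, and their adjusted p-values were 0.564, 0.630 and 0.679. These are 3 of 15 genes, against 7.78% of all genes and 44 of the 418 tested chromosome 12 genes at that p. *Rcor1* split by dye, being negative in all null/WT and positive in all WT/null replicates, and *Exoc3l4* was positive in 4 of 6 replicates. *Bdkrb1*, the gene of the bradykinin B1 receptor and the neighbour of *Bdkrb2*, had a log2 ratio of 0.19 ± 0.04 (SE, limma adjusted p = 0.382) and was positive in 5 of 6 replicates. The 418 tested genes of chromosome 12 had a median of -0.00, and 3 of them passed the threshold, against 0 of the tested genes on other chromosomes by their brightest probe. Named after their values were seen, they were *Ncapg2* (2.28), *Tedc1* (-1.17) and *Zfp386* (-0.58), each with the same sign in 6 of 6 replicates, and none is an imprinted gene of the list.

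**Figure D3:**
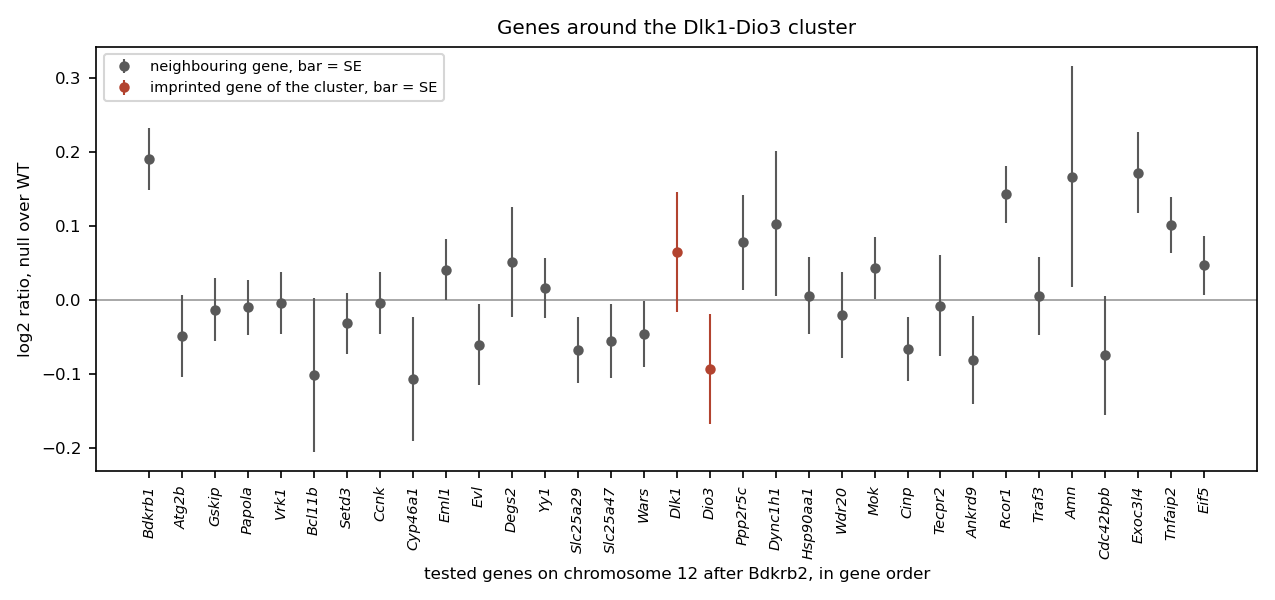
Fitted log2 ratio of null over WT (vertical axis, bars are SE) of the tested chromosome 12 genes after *Bdkrb2*, in gene order. *Dlk1* (0.06) and *Dio3* (-0.09), in red, lie within the range of the neighbours in grey, from -0.11 to 0.19.

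Among the growth genes, *Igf2*, the fetal insulin-like growth factor, showed how far the dye moved single values. Its brighter probe, printed in 10 spots per array, had log2 signals of 10.02, 10.27 and 10.87 in null and of 9.78, 10.25 and 10.53 in WT channels. The log2 ratios of the gene were -0.17, -0.16 and -0.10 in the null/WT and 0.34, 0.35 and 0.29 in the WT/null replicates. Every replicate of one orientation was therefore negative and every replicate of the other positive. Averaged over orientations, the ratio was 0.09 on slide 1 and 0.10 on slides 2 and 3. The fit gave 0.09 ± 0.04 (SE, limma adjusted p = 0.70), with a dye term of -0.23 (limma adjusted p = 0.00860), and the adjusted p was 0.904 with the replicate block. The 8 to 10 usable spots within an array had SDs of 0.03 to 0.05. The second *Igf2* probe gave 0.03 ± 0.04.

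*Igf2r*, the receptor that clears IGF2 into lysosomes, had the highest fitted ratio of the members. Its log2 signals were 11.70, 12.06 and 12.48 in null and 11.27, 11.96 and 12.18 in WT channels. Replicate log2 ratios were 0.79, 0.39 and 0.24 in the null/WT and 0.15, 0.10 and -0.35 in the WT/null replicates, so that 5 of 6 were positive. By slide they averaged 0.47, 0.25 and -0.06. The fit gave 0.22 ± 0.09 (SE, 1.16-fold, 95% interval 1.01 to 1.34, limma adjusted p = 0.70). It was 0.36 without slide 3 (adjusted p = 0.168) and 0.10 without slide 1 (adjusted p = 0.918).

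*Plagl1* encodes a zinc finger factor that restrains cell proliferation. Its brighter probe had log2 signals of 12.46, 12.83 and 13.21 in null and of 12.43, 12.51 and 13.16 in WT channels. Its log2 ratios were 0.36, 0.30 and 0.31 in the null/WT and 0.09, -0.14 and 0.03 in the WT/null replicates. The fit gave 0.16 ± 0.04 (SE, 1.12-fold, 95% interval 1.04 to 1.20, limma adjusted p = 0.570), and the ratio was positive on all 3 slides (0.23, 0.08 and 0.17). The second probe gave 0.15 ± 0.04 (adjusted p = 0.601), although its replicates split by dye, at 0.49, 0.51 and 0.53 in the null/WT and -0.10, -0.35 and -0.20 in the WT/null replicates. When all 12 arrays entered the fit with the replicate as a random block, *Plagl1* alone of the members passed (adjusted p = 0.0488); 148 of all probes passed there, against 9.

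The other listed genes that restrain growth did not pass the test either. *Cdkn1c*, a cyclin-dependent kinase inhibitor, had log2 signals of 15.05, 15.32 and 15.53 in null and of 15.20, 15.43 and 15.49 in WT channels. By replicate, its log2 ratios were -0.18, 0.20 and -0.13 in the null/WT and -0.45, -0.13 and 0.32 in the WT/null replicates, and the fit gave -0.06 ± 0.10 (SE, limma adjusted p = 0.833). Its 95% interval, -0.28 to 0.16, was the widest of the members. *Grb10*, an adaptor that dampens insulin and IGF signalling, had log2 signals of 14.32, 14.57 and 14.98 in null and of 14.01, 14.66 and 14.82 in WT channels. The log2 ratios of the gene were 0.37, 0.37 and -0.02 in the null/WT and -0.20, -0.05 and -0.28 in the WT/null replicates. Its 3 tested probes gave 0.03, -0.04 and -0.06, so that no direction can be given. *Phlda2*, which restrains placental growth, gave -0.03 ± 0.05.

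*Ndn*, a MAGE family gene that restrains the cell cycle in neurons, had the lowest ratio. Its log2 signals were 11.86, 12.12 and 12.26 in null and 12.04, 12.19 and 12.56 in WT channels. Replicate log2 ratios were -0.31, 0.03 and -0.53 in the null/WT and -0.03, 0.12 and -0.27 in the WT/null replicates, and the fit gave -0.16 ± 0.08 (SE, limma adjusted p = 0.710). By slide these were -0.17, 0.08 and -0.40. Over the 6 tested genes listed as restraining growth or cell proliferation (*Igf2r*, *Plagl1*, *Grb10*, *Phlda2*, *Cdkn1c* and *Ndn*) the median was -0.00, with 3 positive and 3 negative. For *Plagl1* and *Ndn* this means proliferation or the cell cycle, not growth of the fetus. The 13 tested genes known as paternally expressed, *Rasgrf1* among them, had a median of 0.06 and the 12 known as maternally expressed a median of 0.03. The latter include *Cd81*, *Tssc4*, *Nap1l4*, *Ppp1r9a* and *Ube3a*, which are imprinted mainly in placenta or neurons, as given above.

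**Figure D4:**
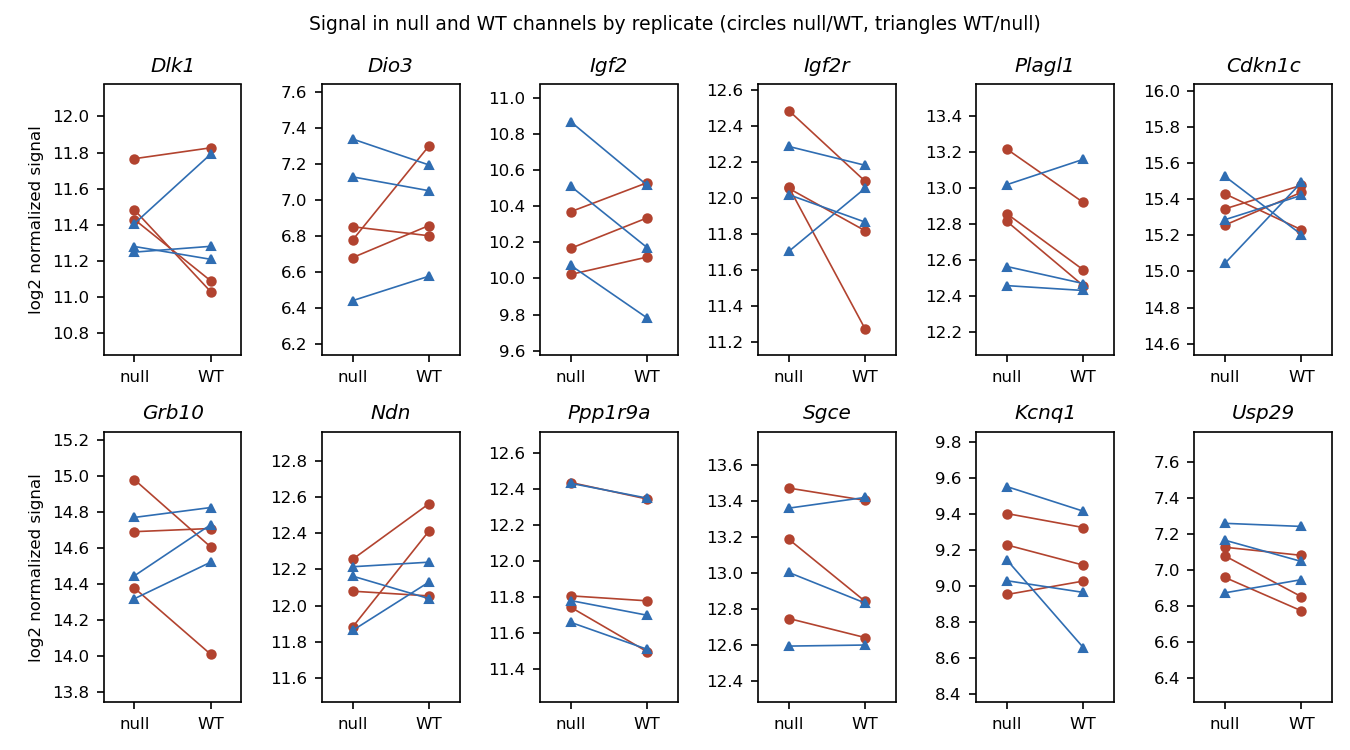
Log2 normalized signal in the null (left) and WT (right) channel of each replicate, joined by a line, for the 12 members given by replicate; circles are null/WT and triangles WT/null replicates, and all panels have the same log2 span. *Ppp1r9a* slopes the same way in 6 of 6 replicates, *Igf2* slopes in opposite ways in the 2 orientations.

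Of the 36 probes, 2 (5.56%) were higher in null kidneys in 6 of 6 replicates, against 1.50% of all probes, and 0 were lower in 6 of 6, against 1.42%. Both belong to the *Peg10* cluster on chromosome 6. *Ppp1r9a*, which encodes the actin-binding protein neurabin, had log2 signals of 11.66, 11.79 and 12.44 in null and of 11.50, 11.74 and 12.35 in WT channels. Its log2 ratios were 0.25, 0.09 and 0.03 in the null/WT and 0.15, 0.08 and 0.08 in the WT/null replicates. The fit gave 0.11 ± 0.04 (SE, limma adjusted p = 0.685). Another *Ppp1r9a* probe, dimmer and clear of background in 8 null channels and 8 WT channels, gave -0.03 ± 0.04.

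*Sgce*, the gene of epsilon-sarcoglycan, which shares its promoter region with *Peg10*, had log2 signals of 12.59, 13.09 and 13.47 in null and of 12.60, 12.84 and 13.42 in WT channels by its brighter probe. By replicate, its log2 ratios were 0.11, 0.07 and 0.34 in the null/WT and -0.01, -0.06 and 0.17 in the WT/null replicates, with a fit of 0.10 ± 0.05. The dimmer probe gave 0.10 ± 0.04 (SE, limma adjusted p = 0.710) and was the one that was positive in 6 of 6 replicates. *Peg10* itself, a gene of retrotransposon origin, was well above background in 0 of 24 channels and was not tested. *Mest*, a paternally expressed hydrolase gene also on chromosome 6, gave -0.03 ± 0.04.

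On proximal chromosome 7, *Peg3*, a zinc finger gene, and *Usp29*, a ubiquitin protease gene, which share the promoter window shown above, both had positive ratios. *Usp29* had log2 signals of 6.87, 7.10 and 7.26 in null and of 6.77, 7.0 and 7.24 in WT channels. The log2 ratios of the gene were 0.18, 0.04 and 0.23 in the null/WT and 0.02, 0.12 and -0.07 in the WT/null replicates, and the fit gave 0.09 ± 0.04 (SE, limma adjusted p = 0.711). *Peg3* gave 0.10 ± 0.07 and 0.09 ± 0.06 by its 2 probes (adjusted p = 0.729 for each), with -0.37 in null/WT replicate 3 and 0.49 in WT/null replicate 1 by the brighter probe. *Zim1* passed as well above background in 5 null channels and 5 WT channels of 12 and was not tested.

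The 8 tested genes of distal chromosome 7 had a median of 0.02, between -0.06 and 0.13. *Kcnq1*, a potassium channel gene of the maternally expressed domain, had log2 signals of 8.95, 9.19 and 9.55 in null and of 8.66, 9.07 and 9.41 in WT channels. Replicate log2 ratios were -0.07, 0.08 and 0.11 in the null/WT and 0.06, 0.14 and 0.49 in the WT/null replicates, and the fit gave 0.13 ± 0.06 (SE, limma adjusted p = 0.710). The tetraspanin gene *Cd81* gave 0.07 ± 0.05, *Slc22a18*, a transporter gene, 0.06 ± 0.05, *Tssc4* -0.02 ± 0.04 and *Nap1l4*, a histone chaperone gene, -0.05 ± 0.04. *Ascl2*, a transcription factor gene of the placenta, stood clear of background in 1 null channel and 3 WT channels and was not tested.

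In central chromosome 7, the region of the Prader-Willi and Angelman syndromes in human, *Snrpn*, which encodes a splicing protein, gave -0.09 ± 0.05 and -0.16 ± 0.07 by its 2 probes (limma adjusted p = 0.723 and 0.710). *Ube3a*, a ubiquitin ligase gene, gave 0.03 ± 0.05, and *Mkrn3* was well above background in 0 of 24 channels. *Gnas*, the gene of the stimulatory G protein alpha subunit, gave -0.11 ± 0.09, with -0.09, 0.15 and -0.40 on slides 1, 2 and 3. *Nnat*, which encodes neuronatin, gave -0.07 ± 0.06 and *Impact*, a regulator of translation, 0.04 ± 0.06. The log2 signals of *Impact* ran between 9.04 and 11.72 in null and between 8.92 and 11.77 in WT channels, moving together on each array, while its ratios stayed between -0.21 and 0.28. *Rasgrf1*, a Ras exchange factor gene, stood clear of background in 6 null channels and 1 WT channel and so passed the filter only through the genotype in which it was higher; its value is a description. Its fitted ratio of 0.09 ± 0.06 (limma adjusted p = 0.727) became 0.53 with the scanner's ratios and 0.58 in the authors' deposited table, where adjusted p-values were 0.551 and 0.550.

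Dye orientation moved several members more than genotype did. For 7 of 36 probes all null/WT replicates had one sign and all WT/null replicates the other, which is 19.4% against 22.4% of all tested probes. The dye term of the fit had an adjusted p under 0.05 for 8 of 36 probes (22.2%), against 13.5% of all probes. By gene these were 5 of 25 (20%), against 15.7% of all genes tested. *Ube3a* averaged 0.37 in the null/WT and -0.30 in the WT/null replicates, and *Nap1l4* 0.19 and -0.30, by their brightest probes. Where a gene had several tested probes, they gave the same sign in 7 of 10 genes and opposite signs in *Slc22a18*, *Ppp1r9a* and *Grb10*.

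**Figure D5:**
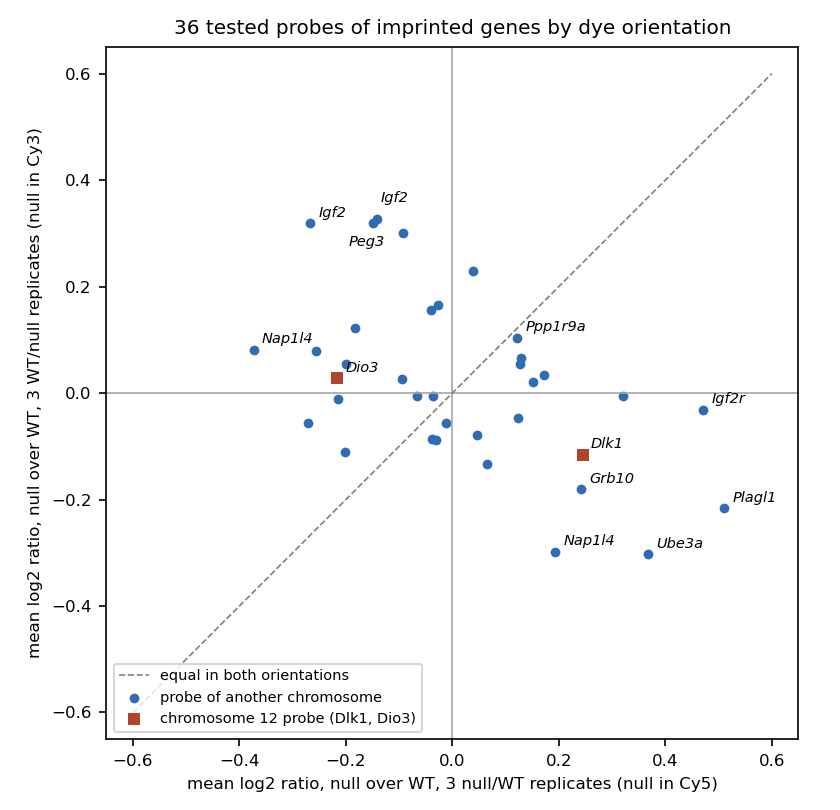
Mean log2 ratio of null over WT in the 3 null/WT replicates (horizontal) against the mean in the 3 WT/null replicates (vertical), 1 point for each of 36 tested probes; the dashed line marks equal values. *Ppp1r9a* lies near the line, whereas *Igf2* (-0.14 and 0.33) and *Ube3a* (0.37 and -0.30) lie far from it.

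Slides differed in more than genotype. The only *Bdkrb2* probe stood clear of background in 0 null channels and 1 WT channel, so it cannot check the genotypes. All 9 nephron progenitor markers were tested, with a summed signal of 29633 to 35210 intensity units in null and of 30809 to 39032 in WT channels. Of these 9, 8 had negative log2 ratios, with medians of 0.01, -0.03 and -0.19 on slides 1, 2 and 3. *Xist* was well above background in all null channels and, in WT, on slide 1 only, and *Ddx3y*, *Kdm5d* and *Eif2s3y* in WT channels of slides 2 and 3 only, so that genotype and embryo sex moved together on those slides. In WT/null replicate 3, the first array had an SD of log2 ratios of 0.38, against 0.16 to 0.26 on the other 11 arrays. Of 8 skeletal muscle markers, 6 were tested (*Myod1* and *Ckm* were not), with a summed signal of 769 to 4003 units in null and 700 to 1043 in WT channels. Their median log2 ratio was 0.14, 0.45 and 2.23 on slides 1, 2 and 3. The 4 tested proximal tubule markers, all with positive fitted ratios, had medians of -0.06, 0.28 and 1.1 by slide, the 4 erythroid markers -0.13, -0.04 and 0.56, the 5 macrophage markers 0.02, 0.03 and 0.26 and the 5 endothelial markers 0.12, 0.04 and 0.14. In bulk RNA, a different number of cells of a type and a different amount of RNA per cell cannot be told apart. Whether sex or the makeup of the tissue had a part in the slide differences of *Dlk1*, *Igf2r*, *Ndn* and *Gnas* was not tested; on slide 1, where both genotypes had *Xist* signal, these genes gave 0.15, 0.47, -0.17 and -0.09.

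Genes around imprinting were read from lists, none of which held a gene past the threshold. Among 22 tested imprint regulators, 8 had positive and 14 negative ratios, with a median of -0.02. Of these 22 regulators, 0 had an unadjusted limma p under 0.05, against 7.78% of all genes. The 4 with the smallest p were *Cbx5* (-0.08), *Smchd1* (0.09), *Mbd3* (-0.14) and *Trim28* (-0.09), the last the corepressor that ZFP57 recruits. Of 27 tested genes from other imprinted loci, 18 were positive and 9 negative (median 0.03). Among the positive was *Slc22a2* (0.11), clear of background in 6 null channels and 4 WT channels. It thus passed the filter only through null, and its value is a description. Of the 27, *Dcn*, a matrix proteoglycan gene, and *Trpm5*, a cation channel gene, had an unadjusted limma p under 0.05. These 2 genes are 7.41%, near the 7.78% of all genes. *Dcn* gave 0.35 ± 0.06 (SE, positive in 6 of 6 replicates, limma adjusted p = 0.190). It is also a stromal marker, and the 7 stromal markers, *Dcn* among them, had a median of 0.22, and their part in its value was not tested.

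The 16 tested IGF and growth axis genes had a median of 0.01, with 9 positive and 7 negative. *Igfbp5* (0.14), *Foxo1* (0.12), *Igfbp1* (0.22) and *Irs1* (0.11), which encode IGF-binding proteins, a transcription factor restrained by insulin signalling and an insulin receptor substrate, had an unadjusted limma p under 0.05 (adjusted p = 0.610, 0.630, 0.640 and 0.691). They are 4 of 16 genes, against 7.78% of all genes. With the replicate block 2 of 16 had an unadjusted limma p under 0.05, against 442 of all 12647 genes tested. *Foxo1* and *Irs1* split by dye. *Foxo1* was negative in all null/WT and positive in all WT/null replicates, and *Irs1* the reverse. The 14 tested Notch and thyroid hormone partners of *Dlk1* and *Dio3* had a median of 0.05, with 11 positive and 3 negative. Among the positive was *Thrb* (0.05), clear of background in 7 null channels and 4 WT channels. It thus passed the filter only through null, and its value is a description. The Notch ligand gene *Jag1* gave 0.16 ± 0.04 (SE, positive in 6 of 6 replicates, limma adjusted p = 0.500). The receptor gene *Notch3* gave 0.16 ± 0.05 (positive in 4 of 6 replicates, adjusted p = 0.588). The Notch target *Hes1* gave -0.10 ± 0.05 (adjusted p = 0.710) and was negative in all null/WT and positive in all WT/null replicates.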

How the data were processed

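The study measured RNA of *Bdkrb2* null and WT embryonic kidneys on two-colour arrays. The deposited scanner files hold median spot and background intensity for each dye, with no normalization, per the file headers, and the scanner's log10 ratio of Cy5 over Cy3. Version 10.5.1.1 of Agilent's Feature Extraction made them, per the file headers, whereas the submitters' processing notes name version 6.1. The authors' deposited value table holds log10 ratios. Set against each array's scanner ratio turned to null over WT, its columns had slopes of 1.00 and correlations of 0.998 to 0.999, which settled scale and direction, while the choice of its blank entries is unknown. Its column medians ran between -0.0218 and 0.00645. All its columns belonged to a sample, so 0 were left aside.

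Background was corrected by normexp (offset 50) on the median intensities. Loess was fitted to the log2 ratios of each array without the control spots and outlier spots. Spots of a probe and the 2 arrays of a replicate were averaged. Probes well above background in null or WT on at least 6 of 12 arrays were tested (22979 of 41174), with limma 3.58.1 in R 4.3.3 (lmFit, eBayes), a dye term and Benjamini-Hochberg adjustment over all tested probes. Standard errors of the log2 ratios had a median of 0.05, and the number of arrays limits the precision. Signals are log2 channel values after loess, not scaled between arrays, and are not comparable between probes. The fit was run on simulated data in which the replicates were independent. That simulation left out the shared deviations within a slide given below, so it does not check the p-values for them.

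Samples that share a replicate number share a slide and deviated together (correlations of 0.587, 0.517 and 0.413), so the numbers pair the samples. The fit behind the printed errors and p-values has no replicate term, and the fit with the replicate block is an alternative to it. Names came from accessions matched to a RefSeq gene table of GRCm38.p6. The array header names mm9, so genes are placed only by chromosome and order. Named were all tested members, with replicate values for the chromosome 12 members, *Igf2*, *Igf2r*, *Cdkn1c*, *Grb10*, *Plagl1* and the 8 members with the smallest p, and up to 4 genes per list, of which 1 is not reported here. Named besides were *Thrb* and *Slc22a2*, which passed the filter only through null channels. Members and lists were chosen with earlier results of these data known.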

Additional observations from a re-analysis of the deposited data

How the results depend on the processing

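Of 459 values of single imprinted genes under alternative settings, 1 passed the threshold and 11 moved by more than the spread between replicates, while 11 of 25 genes kept their sign in every alternative and 14 did not. The probes past the threshold numbered 9. They numbered 4 with the replicate block, 148 with all 12 arrays and a random block (duplicateCorrelation), 15 when WT/null replicate 3 kept only its second array, 3 without slide 2, 62 without slide 3 and 5 to 12 when each replicate was left out in turn, with 5 reached without null/WT replicate 2. Imprinted probes past the threshold numbered 0 in all of these except the random block, where 1 passed. With the replicate block, which takes the numbers as pairs, 0 imprinted probes passed. Of the 418 tested chromosome 12 genes, 2 passed with it, against 3 without. Median centring moved *Dlk1* and *Dio3* to a median of 0.13 and the other members to 0.19, with all probes at 0.14. Leaving out each replicate in turn gave medians of -0.04 to 0.04 for *Dlk1* and *Dio3* and of 0.00 to 0.06 for the others. Alternatives on unadjusted p-values were chosen after seeing the data. Imprinted probes with a limma p under 0.05 numbered 6 (16.7%, against 7.01% of all probes), and 2 with the replicate block (5.56%, against 3.30%). When WT/null replicate 3 kept only its second array, they numbered 8 (22.2%, against 8.12%). They numbered 1 without slide 1 (2.78%, against 3.97%), 6 without slide 2 (16.7%, against 9.56%) and 10 without slide 3 (27.8%, against 8.25%). The cause of these differences was not tested. Low signal over background limits *Rasgrf1*, *Dio3* and the dimmer *Ppp1r9a* probe.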
